A study of Mus musculus with 36 samples.

Results

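The thrombospondin genes Thbs1, Thbs2, Thbs3, Thbs4 and Comp, together with the cartilage intermediate layer protein genes Cilp and Cilp2, were followed in the cerebellum and the hippocampus of mice that lack Pogz in the nervous system. These 7 genes, of 24421 in the count tables, were taken by name from both tables. They were chosen from the cerebellar genotype contrast, in which Comp was among the genes that fell furthest, so their cerebellar differences between genotypes are given below as a description without a test. The tests concern the hippocampal libraries, which that choice did not use, and the 2 tissues of control animals, the sexes and the variation within groups. Where these take in cerebellar libraries they share them with that choice. A gene that falls far in mutant cerebellum must be expressed in control cerebellum, so the tissue difference of Comp is not independent of it.

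Thrombospondins are secreted multidomain glycoproteins that bind calcium and attach to cells and to other matrix proteins. Thbs1 and Thbs2 encode trimeric, matricellular thrombospondins, which in the brain are known as products of astrocytes and vessels that promote synapse formation and bind the receptors CD36 and CD47. Thbs3, Thbs4 and Comp encode pentameric forms, of which COMP is best known as an organiser of collagen fibrils in cartilage and tendon. Cilp and Cilp2 encode secreted cartilage glycoproteins, and CILP is known to bind TGF-beta and to antagonise IGF-1.

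The animals were adult C57Bl/6 mice of 3 genotypes: controls (Pogzfl/fl without Cre), Pogz cKO+/- (NesCre/+; Pogzfl/+) and Pogz cKO-/- (NesCre/+; Pogzfl/fl), with 3 males and 3 females each. Every one of these 18 animals gave a cerebellar and a hippocampal library. Controls carried no Cre transgene while both mutant groups did, so the presence of Cre and the loss of the first allele cannot be told apart, and cKO+/- animals also carried 1 allele that was never floxed. Nestin-Cre acts in cells of the nervous system lineage, which leaves Pogz intact in other cells of a dissected piece such as those of meninges and vessels. Controls were littermates of the mutants, and animals are named here as in their labels, with the number of the animal.

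The cerebellar libraries held from 21421850 to 32544929 counts in genes and the hippocampal libraries from 17609321 to 45544188. Pogz itself, counted over its whole length although Cre removes only some of its exons, fell in the cerebellum from 99.6 ± 15.2 CPM (counts scaled to an equal library total with TMM factors) in controls to 77.7 ± 5.78 in cKO+/- and 65.8 ± 7.34 in cKO-/- (SD, n = 6 each). In the hippocampus it fell from 90.9 ± 1.24 to 76.4 ± 2.27 and to 61.7 ± 3.55 CPM (SD, n = 6, 6 and 5). Markers matched the labelled tissues: 5 genes of hippocampal neurons summed to 592 to 870 CPM in hippocampal and 66.8 to 106 CPM in cerebellar libraries, and 5 genes of cerebellar neurons summed to 2529 to 4083 CPM in cerebellar libraries. In hippocampal libraries the cerebellar list summed to 133 to 311 CPM, with the highest value in control Sample_1129. Hippocampal values are given without the cKO-/- female Sample_1160, because the study left out 1 sample that it did not name and this library is taken here to be that sample, which no label states; values with it stand beside each result that moves. Animals of all groups numbered from Sample_1120 to Sample_1219 include every control, but only 3 cKO+/- and 2 cKO-/- animals, and what that numbering stands for is not given in the labels.

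The low-count filter, above 1 CPM in at least 6 libraries, was passed by 5 of the 7 genes in each tissue. In the cerebellum Thbs4 and Cilp stayed below it, and in the hippocampus Comp and Cilp did.

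Which of these genes the brain uses, and where, was asked first in controls. Among the thrombospondins, Comp was higher in the cerebellum, and Thbs3 and Thbs4 were higher in the hippocampus. Normalised together over both tissues, Comp stood at 4.46 ± 1.47 CPM in control cerebellum and 0.472 ± 0.261 CPM in control hippocampus (SD, n = 6 each), 9.46-fold higher in the cerebellum. The lowest cerebellar control, at 3.28 CPM, lay above the highest hippocampal one, at 0.914 CPM. The log2 difference, hippocampus minus cerebellum, was -3.28 (SE 0.250, adjusted p = 4.623e-08, edgeR's quasi-likelihood test, Benjamini-Hochberg adjustment). This p is no independent support, because the choice of Comp used these cerebellar controls and required expression in them.

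Thbs4, which besides its place in muscle and tendon is an astrocyte product of the forebrain, showed the widest gap of the 7 genes. It ran from 0.0685 to 0.368 CPM in control cerebellum and from 18.7 to 36.6 CPM in control hippocampus, a 119-fold difference of means (log2 6.89, SE 0.228, adjusted p = 9.275e-12, same test). Thbs3 went from 4.88 ± 0.915 to 32.0 ± 4.36 CPM (SD, n = 6 each), 6.56-fold higher in the hippocampus (log2 2.71, SE 0.127, adjusted p = 3.07e-10, same test). Cilp2 went the same way at a lower level, from 0.741 ± 0.223 to 2.65 ± 0.432 CPM, 3.58-fold higher (log2 1.83, SE 0.195, adjusted p = 1.419e-06, same test). For Thbs3, Thbs4 and Cilp2 no hippocampal control overlapped a cerebellar one.

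Thbs2 was the other gene with more transcript in the cerebellum, at 9.87 ± 0.902 against 5.73 ± 2.07 CPM (SD, n = 6 each; log2 -0.80, SE 0.165, adjusted p = 0.0006674, same test), although the 2 ranges overlapped through hippocampal control Sample_1129 at 9.82 CPM. Thbs1 did not pass the test, with 7.68 ± 3.28 and 8.90 ± 7.69 CPM (log2 0.21, SE 0.497, adjusted p = 0.7161, same test), and its fitted sign turned to -0.26 without Sample_1129 and to -0.18 without Sample_1190. Of the 6 members that passed the filter over these 12 libraries 5 were called, where 71.9% of all 14224 genes tested were, so that being called is no mark of these genes. The 5 calls held in every fit that left out 1 control animal. Comp, at most 0.914 CPM in control hippocampus, passed this filter only through its cerebellar libraries. Thbs4, at most 0.368 CPM in control cerebellum, passed it only through its hippocampal ones, and Cilp2 needed its hippocampal libraries too. The calls of these genes are thus tied to the tissue where each was high. Cilp stayed at 0 to 0.167 CPM in the cerebellum and 0.128 to 0.371 CPM in the hippocampus, that is, at 0 to 5 and 5 to 13 counts per library. Tissue and any other difference between the 2 sets of libraries cannot be told apart.

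**Figure D1:**
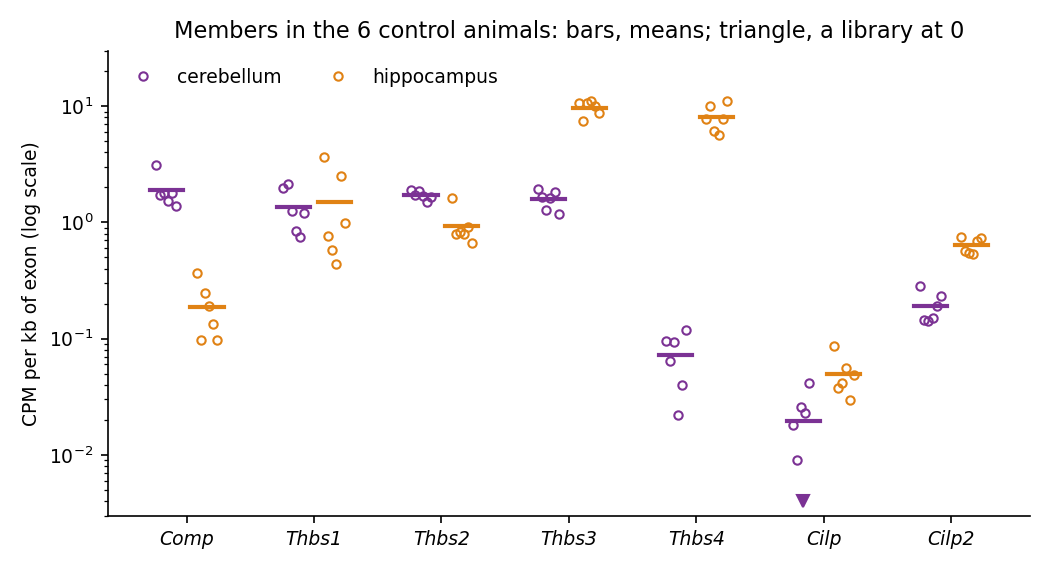
Levels of the 7 genes in the 6 control animals, as CPM per kb of exon on a log scale, with 1 circle per library, a bar at each mean, and a triangle for genes with a library at 0. Comp lies higher in the cerebellum (purple), Thbs3, Thbs4 and Cilp2 lie higher in the hippocampus (orange), and the circles of these 4 genes do not overlap between tissues.

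Between genes, levels were compared per kb of exon, normalised within each tissue. In control cerebellum the order was Comp (1.90 ± 0.624 CPM per kb), Thbs2 (1.72 ± 0.150), Thbs3 (1.58 ± 0.301), Thbs1 (1.36 ± 0.579), Cilp2 (0.190 ± 0.0571), Thbs4 (0.0723 ± 0.0366) and Cilp (0.0196 ± 0.0143; SD, n = 6 each). Each neighbouring pair among the first 4 differed by less than the larger of its 2 SDs, though Comp and Thbs2 differed by more than the smaller one. In control hippocampus Thbs3 (9.75 ± 1.36) and Thbs4 (8.07 ± 2.10) headed the order, followed by Thbs1 (1.49 ± 1.29), Thbs2 (0.938 ± 0.344), Cilp2 (0.638 ± 0.104), Comp (0.189 ± 0.106) and Cilp (0.050 ± 0.0203 CPM per kb). There too, Thbs3 and Thbs4 differed by less than the larger SD, and so did Thbs1 and Thbs2, and Thbs2 and Cilp2.

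In the cerebellum, the tissue whose genotype contrast chose the genes, Comp was lower in every mutant library than in every control. Controls ran from 3.37 CPM through a median of 4.27 to 7.58 CPM, cKO+/- from 1.08 through 1.27 to 1.71 CPM, and cKO-/- from 0.400 through 0.742 to 1.23 CPM. The highest control was Sample_1129. As means these are 4.60 ± 1.51, 1.33 ± 0.230 and 0.780 ± 0.301 CPM (SD, n = 6 each), so the mutant groups held 28.9% and 17% of the control mean. In reads, Comp had 98 to 200 counts per control library, 30 to 56 in cKO+/- and 12 to 33 in cKO-/-.

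Fitted on the number of intact alleles with a term for sex, the log2 change of Comp was -1.31 for each allele lost (SE 0.133), and without any 1 animal it ran from -1.42 to -1.19. With genotype as a factor, the change was -1.78 (SE 0.238) in cKO+/- and -2.55 (SE 0.252) in cKO-/-, so that most of the decrease was already there with 1 allele. Neither a term for animal numbers (-1.42, SE 0.179) nor a fit to Sample_1120 to Sample_1219 alone (-1.68, SE 0.155) made it smaller. In bulk tissue, fewer cells that express a gene and less RNA per cell cannot be told apart.

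The other members that passed the filter were higher than, or close to, their control level in cKO-/- cerebellum. Cilp2 went from 0.764 ± 0.230 in controls to 1.16 ± 0.352 in cKO+/- and 2.20 ± 1.21 CPM in cKO-/- (SD, n = 6 each; fitted log2 change 0.76 per allele lost, SE 0.159), with cKO-/- libraries from 0.866 through a median of 2.0 to 4.45 CPM and controls up to 1.14 CPM. Thbs2 went from 10.2 ± 0.889 to 12.5 ± 1.95 and 16.5 ± 4.72 CPM (0.35 per allele lost, SE 0.0778), with cKO-/- libraries from 10.9 to 21.5 CPM and controls from 8.86 to 11.2 CPM. Only some cKO-/- libraries of both genes lay above the controls.

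Thbs1 stood at 7.91 ± 3.36, 7.51 ± 2.21 and 14.6 ± 5.48 CPM in controls, cKO+/- and cKO-/- (SD, n = 6 each; 0.45 per allele lost, SE 0.146). Its controls ran from 4.35 to 12.5 CPM and its cKO-/- libraries from 8.44 to 22.8 CPM. Thbs3 stayed close to its control level, at 5.04 ± 0.958, 4.90 ± 1.08 and 5.79 ± 0.876 CPM (0.10 per allele lost, SE 0.0783). Thbs4, with 2 to 14 counts per library, had 0.231 ± 0.117, 0.166 ± 0.137 and 0.315 ± 0.180 CPM, and Cilp, with 0 to 14 counts, had 0.0813 ± 0.0593, 0.174 ± 0.164 and 0.123 ± 0.0856 CPM. At such counts no difference of either gene was detectable.

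Since the members were picked on this contrast, their calls in it say nothing further: 4 of the 5 were called (Comp down, Thbs1, Thbs2 and Cilp2 up), beside 13.7% of the 14027 genes tested. Comp was the only 1 of the 5 whose cKO-/- libraries all lay on 1 side of all controls, beside 4.58% of genes. The median fitted change was 0.35 over the 5 members and 0.0008673 over all genes.

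**Figure D2:**
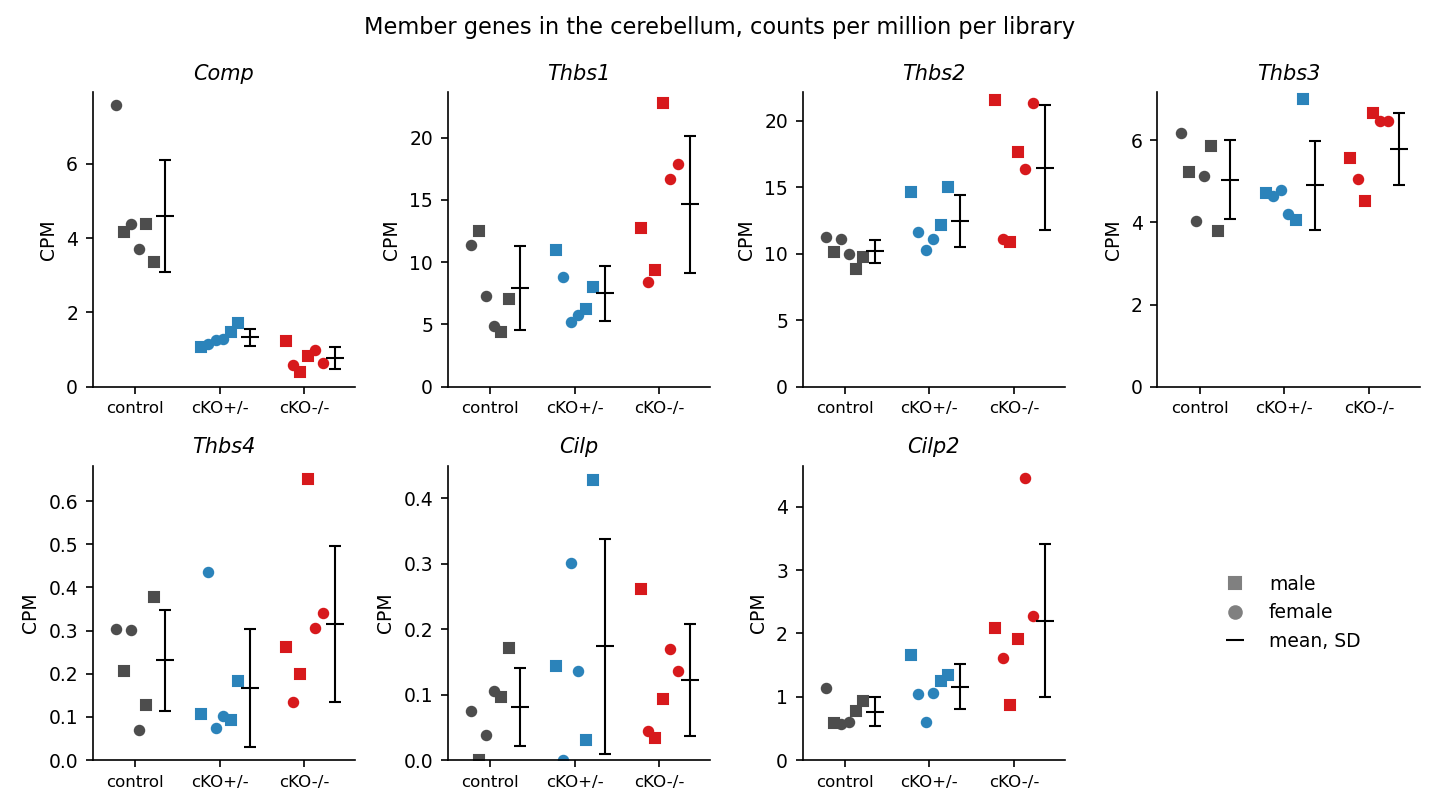
CPM of each gene in the 18 cerebellar libraries by genotype, circles and squares for the sexes as in the key, with mean and SD beside each group (n = 6). Comp drops in both mutant groups without overlap with controls, while Thbs1, Thbs2 and Cilp2 are higher in part of the cKO-/- libraries.

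The 3 increases moved together with the animal numbers and with markers of some other cell types. The 8 markers of meningeal and perivascular fibroblasts, cells that also make thrombospondins, summed to 127 to 169 CPM in control, 146 to 215 CPM in cKO+/- and 145 to 307 CPM in cKO-/- cerebellum. Of the 8, 6 were called up (Col1a1, Col1a2, Col3a1, Dcn, Slc6a13 and Aldh1a2), beside 13.7% of all genes called in either direction. In the 2 cKO-/- animals numbered with the controls the 8 markers summed to 145 to 178 CPM, and in the 4 others to 260 to 307 CPM. Thbs1 was at 8.44 to 9.39 CPM in those 2 libraries and 12.7 to 22.8 CPM in the 4 others.

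Thbs2 divided the same way, at 10.9 to 11.1 against 16.4 to 21.5 CPM, and so did Cilp2, at 0.866 to 1.61 against 1.91 to 4.45 CPM. Among Sample_1120 to Sample_1219 alone, the fitted change per allele lost was 0.01 for Thbs1, 0.07 for Thbs2 and 0.34 for Cilp2. Comp divided alike within cKO-/-, at 0.400 to 0.580 CPM in the 2 libraries numbered with the controls and 0.646 to 1.23 CPM in the 4 others, yet all 6 lay below every control.

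Markers of astrocytes, a known source of Thbs1 and Thbs2, were higher in part. The 6 genes summed to 2410 to 2975 CPM in control, 2837 to 3235 CPM in cKO+/- and 2809 to 3840 CPM in cKO-/- libraries. Of the 6, 3 were called up (Gfap, Aqp4 and Gja1), beside 13.7% of all genes called in either direction. The 6 choroid plexus markers summed to 2290 CPM in Sample_933, 2946 CPM in Sample_936 and 3079 CPM in Sample_1433, all numbered outside the range of the controls, and to 18.3 to 25.8 CPM in controls. Those 3 libraries had 8.02 to 12.7 CPM of Thbs1. Vessel markers did not go the same way. The 7 mural cell markers had a median sum of 194 CPM in control and 198 CPM in cKO-/- cerebellum, with 0 called. The 5 endothelial markers had medians of 163 and 142 CPM, with Ly6c1 called down. The part of fibroblast, astrocyte, vessel and choroid plexus RNA in the increases was not tested.

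Markers of cartilage and bone, where Comp and Cilp are known best, were nearly missing from both tissues. Their 7 genes summed to 2.05 to 4.36 CPM in hippocampal libraries, and 1 of the 7, Col2a1, passed the filter. In the cerebellum they summed to 2.45 to 5.77 CPM in control, 5.51 to 9.03 CPM in cKO+/- and 6.34 to 10.6 CPM in cKO-/- libraries, with Col2a1 called up. All cKO-/- sums thus lay above all control sums, opposite to Comp and in the direction of Cilp2, and their part in the differences was not tested.

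**Figure D3:**
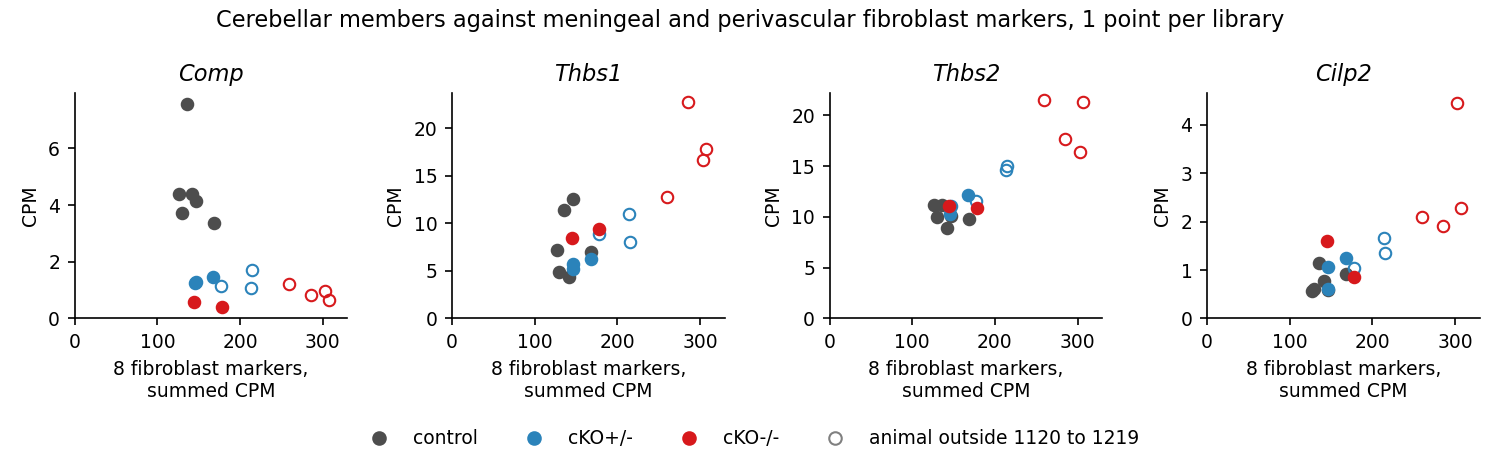
CPM of Comp, Thbs1, Thbs2 and Cilp2 in the 18 cerebellar libraries against the summed CPM of 8 fibroblast markers, coloured by genotype, with open circles for animals numbered outside Sample_1120 to Sample_1219. The 4 cKO-/- libraries outside the range lie at 260 to 307 CPM of markers and hold the higher Thbs1, Thbs2 and Cilp2 values of their group, while Comp is low in all mutant libraries.

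The hippocampus of the same animals gave libraries that the choice of genes had not used. There the pentameric Thbs4 and the cartilage protein gene Cilp2 passed the test on the number of alleles lost, Thbs3 passed in cKO-/- against controls, and none of the 3 passed in cKO+/- against controls. Comp, which was so much lower in mutant cerebellum, was near the limit of detection in all groups. The sequences just upstream of the 3 genes that were lower in cKO-/- hippocampus are shown first, from RefSeq on GRCm38.p6, the build whose positions the tables match; an entry was found for 5 of the 7 genes. Each holds the 250 bases before the annotated start, 5′ to 3′ on the strand of the gene. Capitals mark GC boxes (GGGCGG or, on the other strand, CCGCCC) and CCAAT boxes (CCAAT or ATTGG), which do not overlap one another in these 3 windows. The windows lie at chr13:92794819-92795068 on the minus strand for Thbs4, chr8:69887393-69887642 on the minus strand for Cilp2 and chr3:89214930-89215179 on the plus strand for Thbs3.
Thbs4: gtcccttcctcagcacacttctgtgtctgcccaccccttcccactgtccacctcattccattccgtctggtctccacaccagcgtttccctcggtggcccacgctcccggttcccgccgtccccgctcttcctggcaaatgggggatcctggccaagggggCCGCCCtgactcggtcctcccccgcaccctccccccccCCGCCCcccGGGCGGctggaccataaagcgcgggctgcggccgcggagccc
Cilp2: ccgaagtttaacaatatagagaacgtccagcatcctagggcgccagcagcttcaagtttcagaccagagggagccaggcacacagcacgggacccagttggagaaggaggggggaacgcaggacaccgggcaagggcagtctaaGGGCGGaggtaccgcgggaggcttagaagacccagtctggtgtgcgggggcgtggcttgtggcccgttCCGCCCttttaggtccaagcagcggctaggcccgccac
Thbs3: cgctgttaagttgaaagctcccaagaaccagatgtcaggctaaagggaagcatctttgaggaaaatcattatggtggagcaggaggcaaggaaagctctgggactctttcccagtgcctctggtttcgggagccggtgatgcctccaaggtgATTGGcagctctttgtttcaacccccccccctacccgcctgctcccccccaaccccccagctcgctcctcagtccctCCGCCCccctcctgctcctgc
The window of Thbs4 held 3 GC boxes and 70.8% G and C, that of Cilp2 2 GC boxes and 62.4%, and that of Thbs3 1 GC box, 1 CCAAT box and 58.8%. A GC box occurred in 32.7% of 32851 windows of this length before RefSeq starts, a CCAAT box in 33.8% and a TATA box (TATAAA or TTTATA) in 12.4%, with a median G and C content of 52.4%. Of the other members with an entry, Thbs2 held 1 TATA box and 2 CCAAT boxes, and Cilp held none of the 3 motifs. A match is a description of letters, not a bound site.

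Thbs4 was at 18.1 CPM in the lowest, 24.9 in the median and 35.2 in the highest control hippocampus, and at 15.7, 20.3 and 22.4 CPM in cKO+/-. The 5 cKO-/- libraries had 13.2 CPM in Sample_936, 14.4 in Sample_1219, 10.7 in Sample_1371, 10.3 in Sample_1379 and 18.6 in Sample_1385. All but Sample_1385 thus lay below every control and every cKO+/- library, and Sample_1385 lay within both ranges.

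The means were 25.9 ± 6.74, 19.5 ± 2.72 and 13.4 ± 3.36 CPM (SD, n = 6, 6 and 5), with cKO-/- at 51.9% of control. The log2 change per allele lost was -0.46 (SE 0.0880, adjusted p = 0.005015 by Benjamini-Hochberg, edgeR's quasi-likelihood test). With Sample_1160, at 12.6 CPM, it was -0.48 (adjusted p = 0.00546), and without any 1 animal it ran from -0.53 to -0.41 with an adjusted p of at most 0.01994 (same test). With genotype as a factor, cKO-/- differed by -0.94 (adjusted p = 0.005915) and cKO+/- by -0.39 (adjusted p = 0.4228, same test). Per allele lost it was, with a term for animal numbers, -0.38 (adjusted p = 0.3054), and within Sample_1120 to Sample_1219, where a single cKO-/- library remains, -0.37 (adjusted p = 0.4713, same test).

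Cilp2 was at 2.14 CPM in the lowest, 2.53 in the median and 3.04 in the highest control hippocampus and at 2.19 to 2.71 CPM in cKO+/-. In cKO-/- it had 1.77 CPM in Sample_936, 1.59 in Sample_1219, 1.25 in Sample_1371, 1.38 in Sample_1379 and 1.5 in Sample_1385. All 5 lay below every library of the other genotypes, on 24 to 64 counts each against 87 to 113 in controls. These raw counts also differ by depth: the 5 libraries held 17609321 to 36449872 counts in genes, and the controls 30389941 to 45544188. The library of Sample_1160, at 2.59 CPM, lay among the controls.

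For Cilp2 the means were 2.57 ± 0.417, 2.41 ± 0.199 and 1.5 ± 0.200 CPM (SD, n = 6, 6 and 5), with cKO-/- at 58.4% of control. Per allele lost the log2 change was -0.36 (SE 0.0792, adjusted p = 0.01464, edgeR's quasi-likelihood test, Benjamini-Hochberg adjustment). The call ended with Sample_1160 (-0.29, adjusted p = 0.1106), with a term for animal numbers (-0.33, adjusted p = 0.3224) and within Sample_1120 to Sample_1219 (-0.22, adjusted p = 0.7797, same test), and it held without any other 1 animal, at an adjusted p of at most 0.04774. With genotype as a factor, cKO-/- was lower by 0.77 (SE 0.135, adjusted p = 0.002923) and cKO+/- differed by -0.08 (adjusted p = 0.8915, same test).

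Thbs3, a pentameric thrombospondin known from developing skeleton, was lower in cKO-/- and had no detectable difference in cKO+/-. Controls ran from 23.6 through a median of 32.8 to 35 CPM and cKO+/- from 27.7 through 32.0 to 40.2 CPM. The cKO-/- values were 23.5 CPM in Sample_936, 21.2 in Sample_1219, 20.8 in Sample_1371, 19.1 in Sample_1379 and 18.1 in Sample_1385, all below every control, with Sample_936 just under the lowest, and Sample_1160 had 30.9 CPM.

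Thbs3 averaged 31.0 ± 4.33, 32.8 ± 5.10 and 20.5 ± 2.07 CPM (SD, n = 6, 6 and 5). The change per allele lost was -0.27 (SE 0.0797, adjusted p = 0.0649, edgeR's quasi-likelihood test), short of the threshold of 0.05, while DESeq2 gave an adjusted p of 0.01027, and without Sample_1120, Sample_1155 or Sample_1433 it passed (-0.32 to -0.27). As a factor, cKO-/- passed (-0.58, SE 0.114, adjusted p = 0.007016) and cKO+/- did not (0.08, adjusted p = 0.8706), and with Sample_1160 the change in cKO-/- no longer passed (-0.47, adjusted p = 0.0885, edgeR's quasi-likelihood test). Per allele lost it was -0.29 with a term for animal numbers (adjusted p = 0.4743) and -0.11 within Sample_1120 to Sample_1219 (adjusted p = 0.8653, same test). Thbs3 lies on chromosome 3 like Pogz, 5.61 Mb away. Controls and cKO-/- animals were both Pogzfl/fl, and only cKO+/- animals carried an unfloxed allele. Any part of alleles linked to the targeted locus was not tested.

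The trimeric thrombospondins did not pass the test in the hippocampus. Thbs2 stood at 5.55 ± 2.04, 5.72 ± 1.12 and 8.75 ± 2.84 CPM (SD, n = 6, 6 and 5), with cKO-/- at 6.34 CPM in Sample_936, 13 in Sample_1219, 6.14 in Sample_1371, 8.33 in Sample_1379 and 9.94 in Sample_1385, and controls up to 9.59 CPM in Sample_1129. Its change per allele lost was 0.33 (SE 0.117, adjusted p = 0.1232, edgeR's quasi-likelihood test, Benjamini-Hochberg adjustment), and without control Sample_1129 it was 0.44 and past the threshold.

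Thbs1 was uneven in every hippocampal group but cKO+/-. Controls Sample_1129 and Sample_1190 stood high, at 21 and 14.7 CPM, with the rest at 2.55 to 5.70 CPM, and 1 cKO-/- animal, Sample_1219, reached 36.9 CPM while the other 4 had 4.32, 5.21, 7.93 and 8.74 CPM. The cKO+/- libraries held 2.26 to 5.30 CPM. Per allele lost the change was 0.21 (SE 0.318, adjusted p = 0.7501, edgeR's quasi-likelihood test), and it was -0.29 without Sample_1219.

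Comp counts were 7 to 32 per hippocampal library used, with 0.458 ± 0.256, 0.626 ± 0.221 and 0.561 ± 0.271 CPM in controls, cKO+/- and cKO-/- (SD, n = 6, 6 and 5). The difference of 0.103 CPM between cKO-/- and controls gave p = 0.524 (exact permutation test, two-sided; the smallest p that 6 against 5 allows is 0.00433). With Sample_1160 it was 0.142 CPM (p = 0.355, same exact test). Cilp had 0 to 13 counts and 0.208 ± 0.0841, 0.215 ± 0.107 and 0.176 ± 0.181 CPM, with p = 0.71 by the same exact test, and no difference was detectable at this depth.

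Per allele lost, 2 of the 5 hippocampal members tested were called, both down, beside 4.44% of the 14339 genes tested. With Sample_1160 it was 1 of 5, Thbs4, beside 1.72%, and for cKO-/- against controls 3 of 5 (Thbs3, Thbs4 and Cilp2) beside 4.87%. Thbs3 and Cilp2, 2 of the 5, had all cKO-/- libraries on 1 side of all controls, beside 3.65% of genes. The median fitted change of the 5 was -0.27 against 0.001715 over all genes, with 3 below 0.

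**Figure D4:**
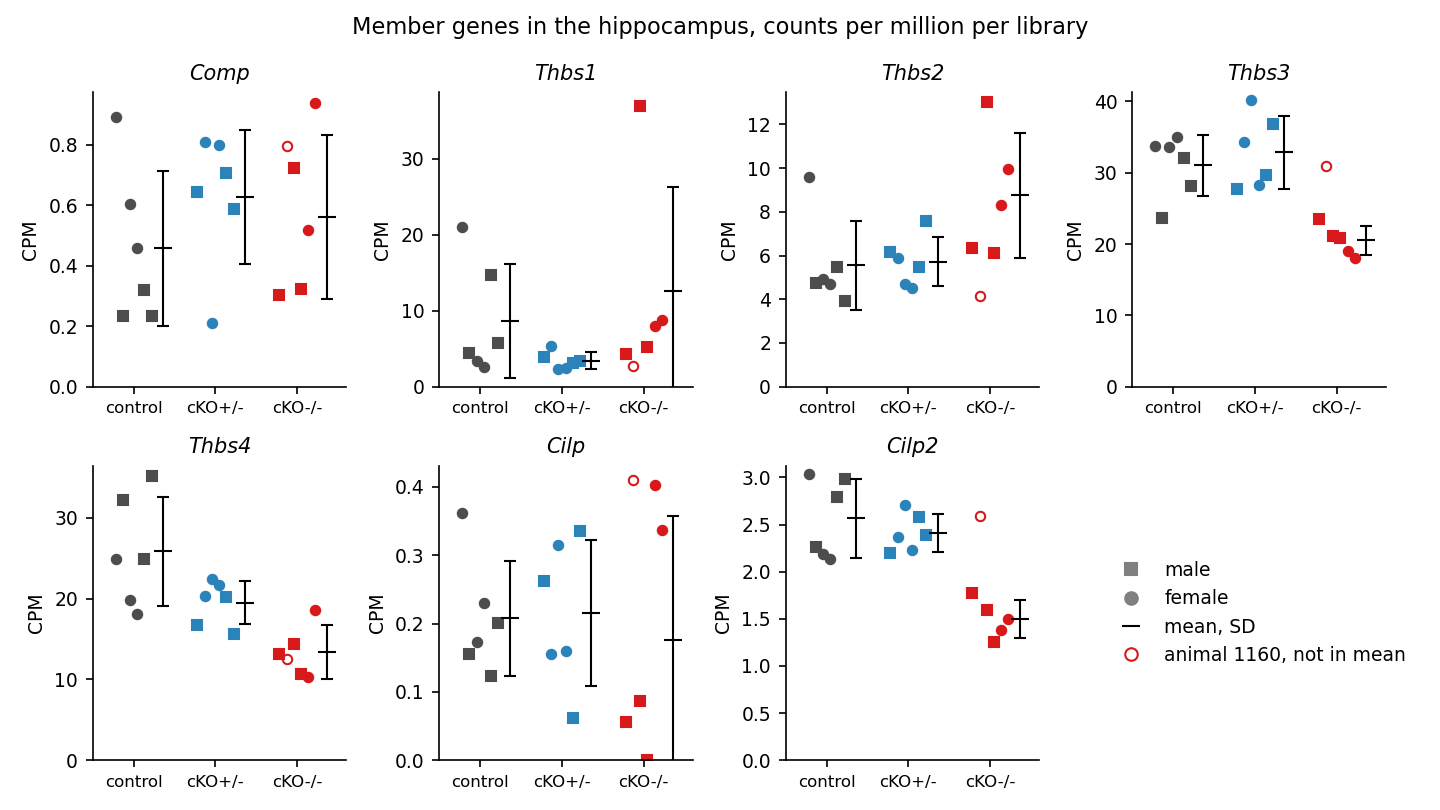
CPM of each gene in the 18 hippocampal libraries by genotype, drawn as for the cerebellum, with mean and SD of the 6, 6 and 5 libraries used and Sample_1160 as an open symbol. Thbs3, Thbs4 and Cilp2 are lower in cKO-/-, with the open symbol among the controls for Thbs3 and Cilp2, and Thbs1 has single high libraries in controls and cKO-/-.

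Other cells did not stay level in these libraries. The fibroblast markers summed to 42.3 to 126 CPM in control, 77.4 to 164 in cKO+/- and 72.6 to 206 CPM in cKO-/- hippocampus, with 1 of 8, Lum, called up. In the same order, 5 endothelial markers summed to 74.0 to 96.4, 65.8 to 113 and 92.0 to 136 CPM, with Pecam1 and Cdh5 called up. Of all genes, 4.44% were called in either direction. The 6 choroid plexus markers ran from 3.85 to 4757 CPM in controls and from 4.21 to 4791 CPM in cKO-/-, with 4757 CPM in Sample_1129, 1073 CPM in Sample_1219 and 4791 CPM in Sample_1385. Control Sample_1170 had 2278 CPM of them. These markers and Thbs1 did not go together throughout: Sample_1129 and Sample_1219 were high in both, Sample_1190 was high in Thbs1 with 14.0 CPM of the markers, and Sample_1170 was at 3.35 CPM of Thbs1. Hippocampal neuron markers summed to 625 to 870 CPM in controls and 594 to 718 CPM in cKO-/-. The part of these cells in the hippocampal differences was not tested.

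**Figure D5:**
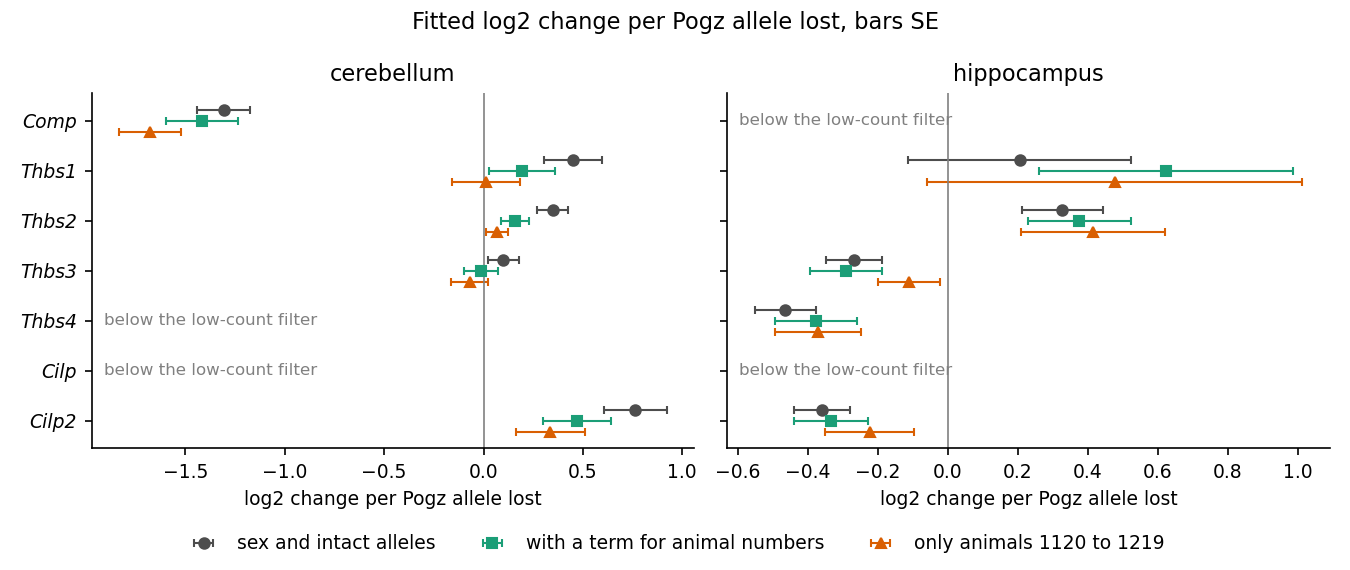
Fitted log2 change per Pogz allele lost with its SE for each gene in both tissues, from the fit with sex, the fit with a term for animal numbers, and the fit to Sample_1120 to Sample_1219. Comp stays between -1.31 and -1.68 in the cerebellum under all 3, the cerebellar values of Thbs1 and Thbs2 come close to 0 within the range of numbers, and hippocampal Thbs3, Thbs4 and Cilp2 stay below 0.

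Side by side, Cilp2 stood at 288% of the control mean in cKO-/- cerebellum and at 58.4% in cKO-/- hippocampus (65.5% with Sample_1160), and Comp at 17% and 123%. The hippocampal value of Comp rests on 7 to 32 counts per library, without a detectable difference (p = 0.524, exact permutation test). Since the cerebellar values chose the genes, the difference between tissues was not tested.

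Between the sexes none of the 5 members tested was called in either tissue by edgeR's quasi-likelihood test. By that test 0.0499% of all genes were called in the cerebellum and 0.907% in the hippocampus. At an unadjusted p under 0.05 it also had none of the members, and its lowest adjusted p was 0.6775, for Thbs3 in the hippocampus. DESeq2 called 17 cerebellar and 621 hippocampal genes and no member, but gave no p for hippocampal Thbs1. The fitted sex difference of Comp in the cerebellum was 0.08 (SE 0.223) and that of Thbs4 in the hippocampus -0.04 (SE 0.139, log2, female minus male).

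Within groups, the genes were compared in pairs after removing genotype-by-sex means, which leaves the split by animal numbers in place. Thbs1, Thbs2, Cilp2 and Comp all divided by those numbers within cKO-/- cerebellum, and the part of that split in the relations was not tested. Over the 18 cerebellar libraries all 15 pairs of the 6 genes counted in every library had r above 0, from 0.20 to 0.73, where 49.4% of the pairs among all 14027 genes did. By Pearson's r 5 of the 15 had an unadjusted permutation p under 0.05 and none passed adjustment over the 30 pairs of both tissues. By Spearman's rho 3 passed: Thbs1 with Thbs2 (r = 0.62, rho = 0.77, adjusted permutation p = 0.111 and 0.0169), Thbs1 with the low-count Thbs4 (r = 0.73, rho = 0.79, adjusted 0.0706 and 0.0301) and Thbs2 with Thbs4 (r = 0.51, rho = 0.67, adjusted 0.133 and 0.0321). Without the 2 animals farthest from the median of the first gene, r was 0.65, 0.78 and 0.39. Comp with Cilp2 had r = 0.69 and rho = 0.65 (adjusted permutation p = 0.133 and 0.12).

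Over the 17 hippocampal libraries 13 of 15 pairs were above 0, from -0.43 to 0.93, beside 49.7% of the pairs among all 14339 genes, and with Sample_1160 it was 10 of 15. Comp and Thbs1 gave r = 0.67 and rho = 0.78 (adjusted permutation p = 0.0402 and 0.0169), with r = 0.70 without Sample_1120 and Sample_1219. Thbs1 and Thbs2 gave r = 0.93 and rho = 0.88 (adjusted permutation p = 0.0718 and 0.0364), with r = 0.81 without Sample_1219 and Sample_1129. These were the 2 hippocampal pairs past the threshold by rho, and Comp with Thbs1 was the 1 pair past it by r. With Sample_1160 no pair passed by r, and by rho Comp with Thbs1 no longer did (adjusted 0.0986). Comp rests on 7 to 32 counts in these libraries. Libraries share dissection and depth, and animal numbers were not removed. The part of each in these relations was not tested.

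Genes whose products meet thrombospondins were taken from lists of known partners. Of 16 receptors and binding partners, all tested in the hippocampus, 1 was called up and 1 down, beside 4.44% of all genes tested. Cd36, a scavenger receptor that binds thrombospondin-1 on endothelial cells and microglia, went from 0.939 ± 0.344 to 2.84 ± 1.30 and 3.94 ± 1.35 CPM (SD, n = 6, 6 and 5; log2 1.02 per allele lost, SE 0.180, adjusted p = 0.002979, edgeR's quasi-likelihood test, Benjamini-Hochberg adjustment). It kept its call with Sample_1160 and lost it with a term for animal numbers (adjusted p = 0.09819, same test). The change of Cd36 was 1.21 within Sample_1120 to Sample_1219, where a single cKO-/- library remains. Sdc4, a cell-surface heparan sulfate proteoglycan, went from 96.4 ± 3.93 to 84.9 ± 16.4 and 65.9 ± 8.29 CPM (log2 -0.27, SE 0.0527, adjusted p = 0.007213, same test), a call that ended with Sample_1160 (-0.18, adjusted p = 0.2697), with a term for animal numbers (-0.15, adjusted p = 0.5619) and within Sample_1120 to Sample_1219 (-0.16, adjusted p = 0.6171, same test).

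Integrin subunits Itgb1 (0.18, adjusted p = 0.06166) and Itga6 (0.17, adjusted p = 0.1252) did not pass, although Itgb1 did with DESeq2 (adjusted p = 0.02557) and in cKO-/- with genotype as a factor (0.37, adjusted p = 0.04422, same test). In the cerebellum, whose contrast chose the genes, Cd36, Itgb1 and Itga6 were called up and Sdc4 down, beside 13.7% of all genes tested. Between control tissues 2 of 15 were called higher and 11 lower in the hippocampus, beside 71.9% of all genes tested. Of 7 TGF-beta and IGF-1 ligands and receptors, the pathways that CILP is known to touch, Igf1r alone was called in the hippocampus, beside 4.44% of all genes tested. Its log2 change per allele lost was -0.10 (SE 0.0240, adjusted p = 0.01961, same test, and adjusted p = 0.2139 with Sample_1160). Its call also ended without Sample_1190, Sample_1371 or Sample_1379, at -0.10 to -0.09, with a term for animal numbers (-0.06, adjusted p = 0.7678) and within Sample_1120 to Sample_1219 (-0.04, adjusted p = 0.8438, same test). Igf1 had 0.21 (adjusted p = 0.06046; 0.02348 with DESeq2) and Tgfbr2 0.12 (adjusted p = 0.3051).

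Of 15 cartilage matrix partners and proteases of COMP, 10 were tested in the hippocampus and none was called by edgeR's quasi-likelihood test, with 4 of 10 at an unadjusted p under 0.05, beside 2883 of all 14339 genes. The largest changes were in Acan, the proteoglycan aggrecan (-0.30, adjusted p = 0.07384), and Adamts5, a protease that cuts it (0.29, adjusted p = 0.07143), both past the threshold with DESeq2. In the cerebellum, 4 of 11 were called up (Col2a1, Fn1, Adamts4 and Adamts5) and 2 down (Col9a2 and Col9a3), beside 13.7% of all genes tested.

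Comp and Cilp2 lie on the same chromosome but not next to each other. On GRCm38, Comp runs over chr8:70373548-70382066 on the plus strand and Cilp2 over chr8:69880366-69887392 on the minus strand, with 486 kb between them. Thbs1 lies at chr2:118111922-118127133 (plus), Thbs2 at chr17:14665500-14694262 (minus), Thbs3 at chr3:89215187-89226837 (plus), Thbs4 at chr13:92751586-92794818 (minus) and Cilp at chr9:65265180-65280605 (plus). Genes within 100 kb of Comp showed smaller changes: Homer3, Ddx49, Cope, Upf1, Crtc1 and Klhl26 changed by -0.13 to 0.05 per allele lost in the cerebellum, against -1.31 for Comp.

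Crtc1, a CREB coactivator whose gene ends 292 bases from Comp on the opposite strand, was called down in the hippocampus at -0.14 (adjusted p = 0.02105, edgeR's quasi-likelihood test). Klhl26 was also called down there at -0.15 (adjusted p = 0.02834, same test), beside 4.44% of all genes tested. Both lost the call with a term for animal numbers (-0.11 and -0.08) and within Sample_1120 to Sample_1219 (-0.11 and -0.05). Crtc1 also lost it without the sex term (-0.13) and without Sample_1155, Sample_1371, Sample_1379 or Sample_1385 (-0.13 to -0.12), and Klhl26 with Sample_1160 (-0.15) and without Sample_1170, Sample_1190, Sample_1192, Sample_1371, Sample_1379 or Sample_1385 (-0.15 to -0.12). Cers1 and Gdf1 near Comp and Tssk6 near Cilp2 stayed under the filter in both tissues. Around Cilp2, Atp13a1, Gmip, Pbx4, Ndufa13 and Gatad2a changed by -0.18 to 0.04 in the cerebellum, and none of these or Lpar2 was called in the hippocampus, where Cilp2 fell by 0.36. No gene of the tables overlaps a member, and RefSeq lists a further RNA gene over 4 of the 7 (Comp, Thbs3, Cilp and Cilp2), whose reads could not be set apart where counting ignored strand. None of the 43-base windows of a member's transcripts occurred in another gene's protein-coding transcripts, so exact matches of this length are not shared between the family's members.

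The genes whose cerebellar levels followed Comp most closely within groups were sought among 14026 others over 18 libraries, after removing genotype and sex means. They were Tnxb, a large matrix glycoprotein gene (r = 0.90), Ppl (r = 0.88), Kiss1r (r = 0.86), Eml3 (r = 0.85) and Efemp2 (r = 0.82). In the cerebellum the fitted change per allele lost was 0.01 for Tnxb, -0.72 for Ppl, 0.008 for Kiss1r, -0.31 for Eml3 and -0.05 for Efemp2. Tnxb fell in the hippocampus by 0.52 per allele lost (adjusted p = 0.0001904) and Ppl by 0.32 (adjusted p = 0.01265, both edgeR's quasi-likelihood test). The other 3 were not called there, where 4.44% of all genes tested were. The call of Tnxb ended within Sample_1120 to Sample_1219 (-0.36, adjusted p = 0.2534), and that of Ppl both there (-0.42, adjusted p = 0.2732) and with a term for animal numbers (-0.35, adjusted p = 0.2155, same test). For Cilp2 the closest were Tspan8 (r = 0.85), Emp3 (r = 0.83), Vtn (r = 0.83), Itih2 (r = 0.82) and Efemp1 (r = 0.81), none called in the hippocampus, where Tspan8 was under the filter. These r values describe 18 libraries that share dissection and depth and from which animal numbers were not removed, and they were the highest of many.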

How the data were processed

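RNA was taken from the cerebellum and the hippocampus of 18 mice. Per the study's methods, RNA with a RIN above 8.5 was made into poly(A) libraries and sequenced as 43-base paired-end reads. The authors deposited raw counts of reads per gene, 1 table per tissue, made with STAR 250a per the submitters' processing notes, without normalization. The notes and methods name mm9, but 99.4% of 23156 genes matched by symbol overlap their RefSeq position on GRCm38, so coordinates are given on that build. Whether counting used strand, and how multi-mapping reads were treated, is not given in the sources used here.

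From the deposited counts, a gene was kept when it exceeded 1 CPM in 6 or more libraries and was fitted with edgeR 4.0.16 (R 4.3.3; quasi-likelihood F-test, legacy=TRUE; TMM factors), on intact allele number and sex, and p-values were adjusted by Benjamini-Hochberg over all genes tested at 0.05. Changes are signed for the loss of 1 allele. The hippocampal filter and factors used all 18 libraries, and 17 entered the fit. Tissues were compared in the 12 control libraries with sex as a covariate. Comp and Cilp, below the hippocampal filter, were compared by exact permutation tests on CPM. Pairs of members with a count in every library were correlated on log2 CPM deviations (prior count 0.5) from genotype-by-sex means, with 100000 permutations within groups. The fitting scripts were tested on simulated data. Alternatives used DESeq2 1.42.0, other factors, no filter, other covariates, genotype as a factor and fits without 1 animal.

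The members, lists and tests were chosen with earlier results of these data known. Named are the 7 members, Pogz, list genes past 0.05 in the hippocampus with those of the largest change among the rest, the 5 genes most like Comp and Cilp2 in the cerebellum, and genes within 100 kb of either. Animal numbers in the labels pair the tissues; in controls, deviations of the same animal correlated between tissues at a median r of 0.274 (0.0448 to 0.446). Animals are separate mice, and the SDs given are over animals.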

Additional observations from a re-analysis of the deposited data

Results flagged for a closer look

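In 6 of 42 groups of libraries 1 value stood apart from the others by Dixon's criterion, which chance meets in about 1 group in 20. Control Sample_1129 had 7.58 CPM of Comp in the cerebellum, against 3.37 to 4.38 CPM in the other controls, and 9.59 CPM of Thbs2 in the hippocampus. The cKO+/- library of Sample_1433 had 7.01 CPM of Thbs3 in the cerebellum, and Sample_938 had 0.435 CPM of Thbs4 there. The cKO+/- library of Sample_1120 had 0.210 CPM of Comp in the hippocampus. The cKO-/- library of Sample_1219 had 36.9 CPM of Thbs1 in the hippocampus, against 4.32 to 8.74 CPM in the other cKO-/- libraries used.

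Cilp2 changed in opposite directions in the tissues, by 1.52 on the log2 scale in cKO-/- cerebellum and -0.77 in cKO-/- hippocampus (-0.59 with Sample_1160), each against controls. The difference between tissues was not tested.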

How the results depend on the processing

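Counts of genes called for genotype fell strongly in the fits for animal numbers and were lowest for cKO+/- against control. In the cerebellum, 308 genes and 1 member (Comp) were called with a term for animal numbers, 277 and 1 within Sample_1120 to Sample_1219, and 48 and 1 for cKO+/- against control, where Comp changed by -1.78; without any 1 animal it was 935 to 2572 genes and 3 to 4 members. In the hippocampus, DESeq2 called 1056 genes. The term for animal numbers left 68 of 636 genes and 0 of 2 members, the range of numbers 27 and 0, all 18 libraries 246 and 1, cKO+/- against control 5 and 0 (3 and 0 over 18 libraries), and cKO-/- against control over 18 libraries 256 and 1; without any 1 animal it was 286 to 937 genes and 2 to 3 members. Between sexes DESeq2 called 17 cerebellar and 621 hippocampal genes, the range of numbers 322 and all 18 libraries 6 hippocampal genes, and fits without 1 animal 7 to 9 and 30 to 212, with 0 members in each. Between control tissues it was 9552 to 10275 genes and 5 members. By Pearson's r no pair of members passed (0) over 18 hippocampal libraries.

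The sign of values that had not passed turned in places. Tgfbr2 was at -0.016 within the range of numbers and -0.00147 for cKO+/- over 18 libraries. Hippocampal Thbs1 was at -1.34 for cKO+/- (-1.34 over 18 libraries) and ran from -0.29 to 0.56 without 1 animal. Thbs3 was at 0.0823 for cKO+/- (0.0858 over 18 libraries), and cerebellar Thbs1 at -0.0796 for cKO+/-. With the replicate block for animal, the tissue difference of Thbs1 was -0.10, and it ran from -0.26 to 0.54 without 1 animal; the paired fit changed no other member's call. Cilp in the hippocampus differed by 0.00774 CPM with Sample_1160, and by -0.0877 to 0.0128 CPM without 1 animal. The cause of these shifts was not tested. DESeq2 gave no adjusted p for hippocampal Thbs1. Depth limits Comp and Cilp in the hippocampus and Thbs4 and Cilp in the cerebellum, which rest on 32 counts per library or fewer.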
